A study of Mus musculus with 8 samples.

Results

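The testes of mice labelled wildtype at postnatal day 23 were described here on their own: which genes gave the highest and the lowest array signal, and which differed most from 1 array to the next. The members were the 5 samples of the series' 8 whose labels call them wildtype, numbered 1, 2, 4, 6 and 7 in their titles, and 1 probe set for each gene name, the one with the highest mean over those 5 arrays. This gave 22008 genes from 45101 probe sets, after 64 Affymetrix control probe sets and 5998 probe sets without a gene name were set aside. The 3 mutant samples were not compared.

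Total RNA of each testis sample was labelled with biotin and hybridised to 1 Affymetrix Mouse430_2 array. The study describes its day 23 control animals as heterozygous littermates (Ctcfl del/+) of the homozygous mutants (Ctcfl del/del), whereas the labels of these 5 samples read wildtype. All 5 may therefore carry 1 copy of the Ctcfl deletion, and they are called wildtype below only because their labels do. The mice were kept on a C57/Bl6 background. The labels do not say whether the numbered samples came from separate animals, so the spread given below is the spread between samples, which may be partly technical. Ctcfl itself was not analysed here.

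Spermatogenesis runs in order from spermatogonia, which divide by mitosis, through spermatocytes, which carry out meiosis, to haploid round spermatids and then elongating spermatids, which pack their DNA by replacing histones first with transition proteins and then with protamines. In a young mouse the first wave of germ cells passes through these steps together, so that at this age late meiotic cells and round spermatids are plentiful while the later spermatids are only beginning to appear. Around them lie the somatic cells of the testis: Sertoli cells, which nurse the germ cells, Leydig cells, which make testosterone, and the contractile peritubular cells of the tubule wall. In RNA from whole tissue, more cells of a type cannot be told apart from more RNA per cell.

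Levels are log2 values after RMA, on which 1 unit is a doubling of signal. Over the 5 arrays the mean level of a gene ran from 3.11 to 14.88, with a median of 7.19. The signal of a probe set depends on its probes as well as on the transcript, so levels of different genes are given as positions in this distribution and not as ratios of transcripts. The highest 1% held 220 genes, at 12.87 or above, and the highest 10% held 2201 genes, at 10.54 or above. The lowest 10% held 2201 genes, at 4.30 or below. There were no detection calls, so a low level is not a statement that a gene was silent. Since there was 1 group, no test was made, and gene groups are given by their counts and medians beside those of all 22008 genes.

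The genes at the top of the scale were a mixture of the general machinery of protein synthesis and of genes used by meiotic and post-meiotic germ cells. The highest level belonged to Ubb, a polyubiquitin gene, at 14.88, 14.89, 14.89, 14.88 and 14.88 on replicates 1, 2, 4, 6 and 7. Its probe set carries the suffix that marks probes shared with related transcripts. Among the germ cell markers listed here the highest was Ldhc, the lactate dehydrogenase of spermatocytes and sperm, at 14.37, 14.32, 14.35, 14.35 and 14.38. The 5 arrays differed there by 0.06, so that no array stood apart.

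The 25 highest genes named here were taken among probe sets with a single gene name, so that those joining several genes were passed over and the 25 reach down to rank 38. Others of them also have a known place in the testis. Dynlt1 (14.43 ± 0.02, SD, n = 5) encodes a dynein light chain abundant there. Ppp1cc (14.12 ± 0.03) encodes a phosphatase needed for sperm formation, and Meig1 (13.82 ± 0.07) encodes a protein required for meiotic and spermatid development. Rsph1 (13.89 ± 0.01) encodes a radial spoke protein of motile cilia and the sperm tail. Phf7 (14.09 ± 0.04) encodes a chromatin reader of male germ cells, read here by a probe set with an x suffix. Slc2a3 (14.07 ± 0.04), a glucose transporter, and Gstm5 (14.12 ± 0.03), a glutathione transferase, were also there. The general genes among the 25 were Eef1a1 and Pabpc1 of translation, the ribosomal protein genes Rpl41, Rpl23, Rpl26 and Rplp0, the chaperone genes Tcp1 and Hsp90aa1, and Ppia and Actg1. Of the 25, 7 were read by probe sets with an s or x suffix, among them Ubb, Phf7, Slc2a3, Rpl41 and Actg1. Over all 25 the largest range across the 5 arrays was 0.18, for Meig1. Array signal can saturate at this end, which was not tested, so a small range here need not mean an equally small difference in transcript.

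Gene classes showed the same division. Of 61 cytosolic ribosomal protein genes, 26 lay in the highest 1% and 50 in the highest 10%, with a median of 12.79. Another 3 of the 61 lay in the lowest 10%, among them Rps16 at 3.81 ± 0.10. Each of these is the value of 1 probe set. Probe sets that join several gene names were not counted for the gene, so a low value need not be the gene's level. All 9 subunits of the CCT chaperonin, which folds tubulin and actin, lay in the highest 10%, with a median of 12.70. Of 77 subunits of the mitochondrial respiratory chain, 61 lay in the highest 10% and 2 in the lowest 10%, with the same limit for those 2. Of 39 proteasome subunits, 23 lay in the highest 10%. Of 48 genes annotated to meiosis, 19 were in the highest 10%, and of 206 annotated to spermatogenesis, 68 were, against 10% of all genes by construction. These annotation terms were read from the deposited table.

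Lists of genes whose work lies in other organs had medians below the 7.19 of all genes. Of 34 vomeronasal receptor genes, which detect pheromones in the nose, 23 were in the lowest 10%, with a median of 3.83. Of 39 olfactory receptor genes 16 were there, with a median of 4.46, and of 25 defensin genes 13 were. The beta-defensin gene Defb19 nevertheless reached 11.81 ± 0.12, and several beta-defensins are known from the male tract. The median was 5.81 for 6 liver genes such as Alb, the serum albumin gene at 4.73 ± 0.21. It was 4.92 for 6 genes of striated muscle, whose lowest was Tnnt3, a troponin gene at 4.04 ± 0.08. For 6 brain genes it was 6.09, with Snap25, of the nerve terminal, lowest at 3.49 ± 0.05. Of the liver, muscle and brain genes, 0, 1 and 2 of 6 lay in the lowest 10%. The highest of each list were Apoa1 at 6.63, Ckm at 6.59 and Camk2a at 6.73. The 10 lowest genes with a single gene name had means between 3.11 and 3.17. They included Syt16 of the synaptotagmin family, Svopl, the vomeronasal receptor gene Vmn1r11, and Ripply2, which acts in the somites of the embryo. The others among the 10 carry only clone or cDNA names.

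**Figure D1:**
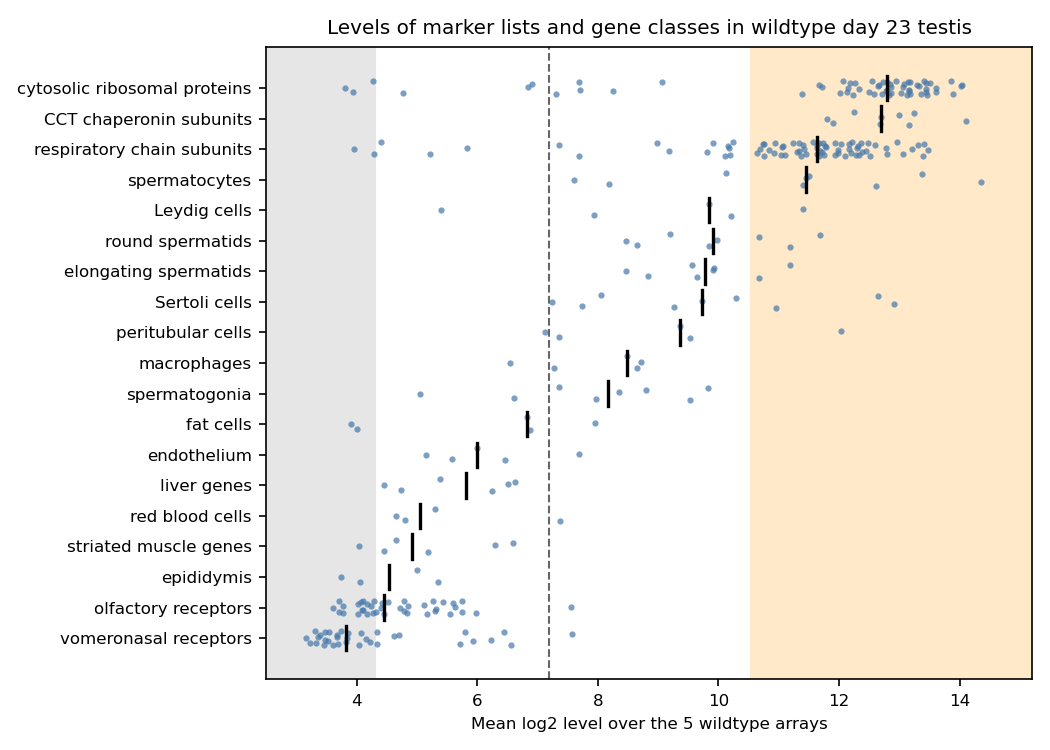
Mean log2 level over the 5 wildtype arrays (x axis) for each member of 19 marker lists and gene classes (points), with the median of each list as a black bar. The dashed line is the median of all 22008 genes (7.19), and the shaded bands are the lowest 10% (grey) and the highest 10% (orange). Most ribosomal, chaperonin and spermatocyte genes lie to the right, and most receptor genes of the nose to the left.

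Markers of most cell types of a testis lay above the median of all genes, and those of spermatocytes stood highest. The 9 spermatocyte markers had a median of 11.45, and 6 of them lay in the highest 10%. Hspa2, a heat shock protein of meiotic cells, was at 13.44, 13.31, 13.38, 13.34 and 13.38, and Sycp3, a core protein of the synaptonemal complex, was at 12.57, 12.72, 12.56, 12.46 and 12.77. The arrays overlapped closely for both. Pgk2, the glycolytic enzyme that germ cells use in place of its X-linked counterpart, stood at 11.45 ± 0.15. None of the 9 had a range of 1 or more, which for so few genes is near the share of 2.68% over all genes. The largest range was 0.42, for the recombinase gene Dmc1.

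Spermatogonial markers had a lower median of 8.16 over the 8 that were measured, and none lay in the highest 10%. Dmrt1, a transcription factor of spermatogonia and Sertoli cells, was the highest at 9.82 ± 0.08. Stra8, which acts at the entry into meiosis, was at 8.76, 8.83, 8.84, 8.80 and 8.74, a range of 0.10. Gfra1, a receptor for GDNF on the stem cells, was the lowest at 5.05 ± 0.16. Zbtb16, another stem cell factor, had the largest range of the list, 0.65, with 8.30 on replicate 1 and 7.65 on replicate 7. Nanos3 was not matched to a gene name here.

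Among somatic cells, the 9 Sertoli markers had a median of 9.73 and ranges of at most 0.38. Clu, encoding the secreted protein clusterin, was at 12.85, 12.93, 12.89, 12.90 and 12.99, and Amhr2, the receptor for anti-Müllerian hormone, was at 12.65 ± 0.04. The lowest was Fshr, the receptor for follicle-stimulating hormone, at 7.24 ± 0.10. Of 5 Leydig markers the highest was Cyp17a1, an enzyme of androgen synthesis, at 11.07, 11.28, 11.10, 11.44 and 12.08. It was also the only 1 of the 5 with a range of at least 1, at 1.01, where 2.68% of all genes had one. Lhcgr, the receptor for luteinising hormone, was lowest at 5.39 ± 0.19. The 5 peritubular markers, led by the smooth muscle actin gene Acta2 at 12.04 ± 0.15, had a median of 9.35. Macrophage markers had a median of 8.48, with Csf1r at 8.72 ± 0.16. Endothelial markers had a median of 5.99, with Kdr highest at 7.69 ± 0.04 and Emcn lowest at 5.14 ± 0.16.

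Spermatid markers fell into 2 kinds. Acr, the acrosomal protease acrosin, and Tekt1, a tektin of the flagellum, lay in the highest 10% and differed by no more than 0.14 among the arrays. Crem, a transcription factor that drives post-meiotic genes, was at 10.65, 10.64, 10.63, 10.62 and 10.80, and replicate 7 was highest by 0.15. The other 5 round spermatid markers were each highest on replicate 7, as described below with the genes that vary.

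Genes on the X chromosome had low positions, as described here for the 17928 genes (81.5%) that matched a RefSeq gene table of assembly GRCm38.p6. The X chromosome is silenced in spermatocytes by meiotic sex chromosome inactivation and stays largely repressed in spermatids. The median of 638 X-linked genes was 6.82, against 7.57 for 17278 autosomal genes. None of the X-linked genes was in the highest 1%, and 18 (2.82%) were in the highest 10%, against 11.0% of autosomal genes. For the autosomes taken singly this share lay between 8.15% (chromosome 13) and 13.1% (chromosome 11), and no autosome had a median as low as that of X. The count of 18 stayed between 17 and 18 when each array was left out in turn.

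The X-linked genes that did stand high included general ones, such as the ribosomal protein gene Rpl39 at 12.80, 13.00, 12.83, 12.79 and 12.80 and Tmsb4x, an actin-binding thymosin, at 12.39 ± 0.07. They also included Tsga8, a gene of haploid germ cells, at 12.18, 12.16, 12.23, 12.29 and 12.62, and Slxl1, a multicopy spermatid gene, at 10.60, 10.93, 10.85, 10.84 and 11.38. These last 2 were highest on replicate 7, whereas Rpl39 and Tmsb4x were not. Tsga8 is read by a probe set with an s suffix. Of the 10 Y-linked genes measured, Eif2s3y, which spermatogonia need to proliferate, was highest at 8.32 ± 0.21.

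**Figure D2:**
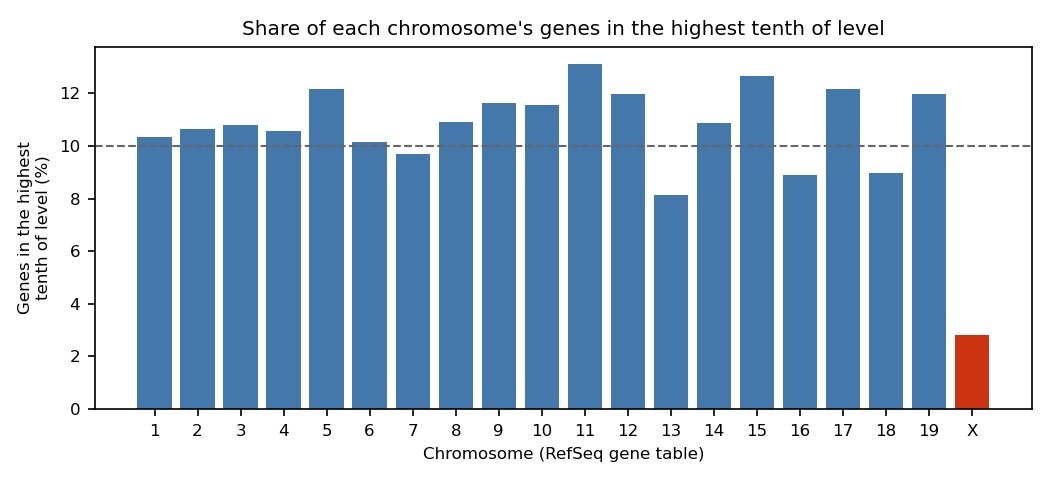
Share of each chromosome's measured genes that lay in the highest 10% of mean level over the 5 wildtype arrays (y axis, percent), by chromosome (x axis), for genes matched to the RefSeq gene table. The dashed line marks 10%, the share over all genes: the X chromosome (red) stands at 2.82% and the autosomes (blue) between 8.15% and 13.1%.

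The 5 arrays were alike for nearly all genes. The median SD of a gene over the 5 arrays was 0.114, and for 95% of genes it was at most 0.294. It was largest in the fourth decile of level (0.139) and smallest in the highest 10% (0.0678). Pairs of replicates 1, 2, 4 and 6 correlated at 0.996 to 0.998 over the 22008 genes, whereas pairs with replicate 7 correlated at 0.990 to 0.992. These correlations are across genes of the same arrays and are given as a description.

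A range of at least 1 between the highest and the lowest array was found for 589 genes, 2.68% of all. The share was 0.363% in the lowest 10% of level, 4.45% in the sixth decile and 0.864% in the highest, and no gene of the highest 1% was among them. Replicate 7 was the extreme array for 520 of the 589, above the others for 473 (2.15% of all genes) and below for 47 (0.214%). For the other arrays the number was between 6 and 29. Without replicate 7, 77 genes (0.35%) had a range of at least 1. In the 473 genes the lowest of the 5 values was that of replicate 1 in 369 (78.0%), whereas over all genes replicate 1 was lowest in 20.9%. By Dixon's ratio for 5 values at its 95% level, 1 array stood apart in 7.65% of genes, and replicate 7 did so in 4.52%.

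The control probe sets also differed somewhat among the arrays. The signal of the Gapdh 3′ probe set was above that of the 5′ probe set by 0.21, 0.21, 0.22, 0.11 and 0.31 on replicates 1, 2, 4, 6 and 7, and that of Actb by 0.90, 0.88, 1.03, 0.89 and 1.13. Both were largest on replicate 7, a measure of RNA quality whose part in the results below was not tested.

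**Figure D3:**
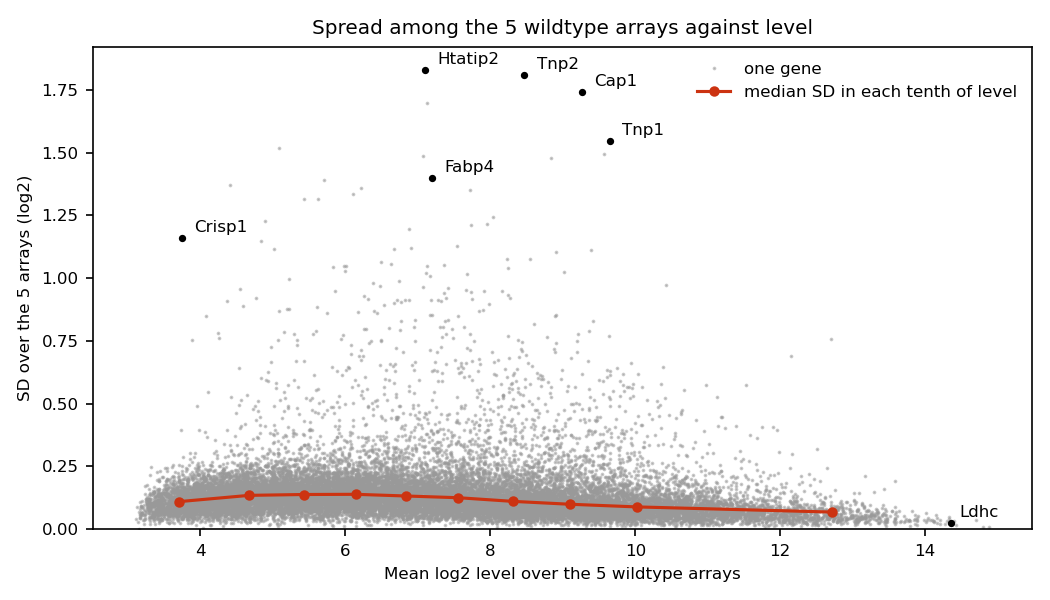
SD over the 5 wildtype arrays (y axis, log2) against mean level (x axis, log2) for each of the 22008 genes (grey points), with the median SD in each decile of level joined by a red line. The red line stays between 0.0678 and 0.139, and the named genes Htatip2, Tnp2, Cap1, Tnp1, Fabp4 and Crisp1 stand far above it while Ldhc lies under it.

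The 4 genes with the largest ranges were those of the transition proteins and protamines, the DNA packing proteins of elongating spermatids. Tnp2 stood at 6.93, 7.70, 8.20, 7.93 and 11.59 on replicates 1, 2, 4, 6 and 7, a range of 4.67. Tnp1 was at 8.19, 9.16, 9.41, 9.21 and 12.28, and its range was 4.09. In both, replicate 7 lay at least 2.87 above every other array, and replicate 1 was the lowest.

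Prm1, encoding protamine 1, was at 8.20, 9.0, 9.41, 9.10 and 12.12, a range of 3.92. Prm2 was at 7.62, 8.27, 8.53, 8.34 and 11.40, a range of 3.78. The order of the arrays was the same in these 4 genes, with replicate 1 lowest, then 2, 6 and 4, and replicate 7 highest. Without replicate 7 the ranges were between 0.92 and 1.27. Prm1 and its 2 other probe sets carry an x suffix, but both of those showed the same order of highest and lowest array, with ranges of 5.40 and 5.49. The probe set of Tnp2 has an s suffix, and Tnp1's other probe set had a range of 1.45 with the same highest and lowest array.

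The promoters of these 4 genes and of Ldhc are shown because the first set varied most of all genes and Ldhc least among the germ cell markers listed. Each is the 120 bases before the start of the gene in the RefSeq annotation of GRCm38.p6, from 5′ to 3′ on the gene's strand. Capitals mark TATA within 40 to 16 bases before the start, and TGANNTCA, a loose form of the element TGACGTCA that CREB and CREM family factors bind.
Tnp2 (chr16:10788656-10788775, minus strand): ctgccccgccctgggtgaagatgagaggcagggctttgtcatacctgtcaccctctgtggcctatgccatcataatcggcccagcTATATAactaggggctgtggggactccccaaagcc
Tnp1 (chr1:73015900-73016019, minus strand): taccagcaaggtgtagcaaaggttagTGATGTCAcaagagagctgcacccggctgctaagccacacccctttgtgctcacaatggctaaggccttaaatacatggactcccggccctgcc
Prm1 (chr16:10796824-10796943, minus strand): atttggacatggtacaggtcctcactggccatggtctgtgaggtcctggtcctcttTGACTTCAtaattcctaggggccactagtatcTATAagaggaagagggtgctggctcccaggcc
Prm2 (chr16:10792106-10792225, minus strand): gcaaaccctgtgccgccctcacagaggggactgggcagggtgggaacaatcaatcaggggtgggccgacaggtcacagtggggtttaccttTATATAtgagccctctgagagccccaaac
Ldhc (chr7:46861143-46861262, plus strand): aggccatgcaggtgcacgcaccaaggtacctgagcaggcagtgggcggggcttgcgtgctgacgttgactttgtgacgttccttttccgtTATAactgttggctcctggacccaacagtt
Tnp1 held the form TGATGTCA 94 bases before its start, and Prm1 held TGACTTCA 64 bases before. Tnp2, Prm2 and Ldhc held no TGANNTCA in the stretch shown, and Tnp1 held no TATA in the window searched.

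Over all promoters these letters were more frequent in the genes that were higher on replicate 7. Of 20723 genes with a single name, 14099 (68.0%) had a promoter entry of 300 bases, from 250 before to 50 after the start. TGANNTCA on either strand was held by 1587 of them (11.3%). Of the genes with a range of at least 1 and replicate 7 higher, 341 had an entry and 124 of these (36.4%) held it. For the other genes with a range of at least 1 it was 9 of 61 (14.8%). In the highest 1% of genes the share was 10.6%, and in the lowest 10% 13.6%.

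The excess lay in most forms of the letters and was largest for TGATGTCA and TGAGGTCA. TGATGTCA or its reverse complement TGACATCA was in 60 of the 341 promoters (17.6%), against 2.45% of all promoters. TGAGGTCA or TGACCTCA was in 31 (9.09%), against 1.78%. Most other forms were also more frequent, by less. TGAGATCA or TGATCTCA was in 2.35%, against 0.660%, and TGACTTCA, the form in Prm1, or TGAAGTCA was in 2.64%, against 1.21%. TGAATTCA was not more frequent, at 0% against 0.277%. The perfect element TGACGTCA was in 7 (2.05%), against 2.70% of all, so that it was not more frequent. Of 146 matches in the genes higher on replicate 7, 117 (80.1%) began within 1 to 100 bases before the start, whereas 50.5% of 1722 matches in all promoters did. A match of letters is a description and not a site in use.

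Other features of the promoters were compared in the same way. The median GC content was 61.3% in the highest 1%, 58.7% over all genes with an entry and 48.7% in the lowest 10%. GGGCGG, the letters of the GC box on either strand, was in 69.9%, 54.5% and 26.7% of them. TATA in the window of 40 to 16 bases before the start was in 7.08%, 5.85% and 15.6%, and in 3.62% of the highest 10%, so that it did not follow the level in order. The genes higher on replicate 7 had a median GC content of 50.7%, with GGGCGG in 22.9% and TATA in 4.69%. The motif CCAAT differed little, at 39.8% in the highest 1%, 40.8% in the lowest 10% and 38.1% in the genes higher on replicate 7, against 38.2% of all. CAGTTG, searched on either strand, was in 15.9%, 14.1% and 15.8%, against 11.8%. TGACGTCA is also a match to TGANNTCA, and matches to the other patterns may share bases.

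All 8 genes listed as markers of elongating spermatids had a range of at least 1, against 2.68% of all genes. Replicate 7 was highest in each, as it was in 23.3% of all genes. The mean level of the 8 was 8.88, 9.37, 9.57, 9.47 and 11.59. The stage at which each RNA first appears was not examined, so this level is no count of elongating spermatids. Markers other than the packing proteins had smaller ranges. Smcp, of the mitochondrial capsule of sperm, was at 10.19, 10.41, 10.57, 10.55 and 11.62. Akap4, the main protein of the fibrous sheath of the tail, was at 9.53, 9.69, 9.68, 9.73 and 10.91. In both, the 4 other arrays lay within 0.37 of each other. Odf1, of the outer dense fibres, had the smallest range of the 8, 1.15. Without replicate 7, 3 of the 8 kept a range of at least 1, against 0.35% of all genes: Prm1, Tnp1 and Tnp2.

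Round spermatid markers differed less. Their mean over 8 genes was 9.66, 9.85, 9.83, 9.92 and 10.53. Of the 8, 3 had a range of at least 1, against 2.68% of all genes. Acrv1, an acrosomal protein, was at 8.37, 9.04, 8.93, 9.20 and 10.41. Izumo1, the sperm protein that binds the egg, was at 8.07, 8.47, 8.45, 8.52 and 9.71, and Spaca1, another acrosomal membrane protein, had a range of 1.49. The smallest of the 8 was Tekt1, with 0.10. None of the 8 had a range of at least 1 without replicate 7, where 0.35% of all genes had one.

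The list means formed a series in the order of the germ cell stages for which the lists are named. The mean of the spermatogonial markers on replicate 7 lay 0.12 below the mean of the other arrays. That of spermatocyte markers lay 0.15 above, of round spermatid markers 0.71 above and of elongating spermatid markers 2.27 above. The members that give each of these means were chosen as markers with earlier results of these arrays known, so the series is a description.

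Gene families of the testis that were collected by name gave the same picture. Of 21 Spata genes 7 had a range of at least 1, of 32 Tex genes 7, of 6 Tssk kinase genes 3 and of 26 Adam genes 3, against 2.68% of all genes (0.35% without replicate 7). Replicate 7 was highest in all of these. Examples were Spata3 at 6.95, 7.38, 7.53, 7.55 and 9.33, and Tssk6, a kinase needed for the histone-to-protamine change, at 5.80, 5.80, 6.07, 5.96 and 7.94. Tex55, a further testis gene, was at 5.06, 5.68, 5.79, 5.66 and 7.76. In the families Spata, Tex, Tssk and Adam no gene had a range of at least 1 without replicate 7. The choice of these examples, and of those in the next paragraph, was made with their values in view.

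Of 47 genes annotated to the nucleosome 12 had a range of at least 1 (25.5%), and of 206 annotated to spermatogenesis 29 (14.1%), against 2.68% of all genes. Both counts include Tnp1, Tnp2, Prm1, Prm2 and Prm3. Without replicate 7 the count was 3 in each group, against 0.35% of all genes. The terms were picked after the data were examined. H2al2a, a histone variant of spermatids, was at 6.08, 6.33, 6.69, 6.56 and 8.87. H1f7, a linker histone of spermatids, was at 8.07, 8.63, 8.83, 8.80 and 10.77, and Hils1, another, was at 10.54, 10.73, 10.81, 10.83 and 11.98. Replicate 7 was at least 1.16 above the other arrays in these 3 genes. No gene of 318 annotated to translation had a range of at least 1. None of 48 annotated to meiosis had one either, which for so few genes is near the share of 2.68% over all genes. Of the 638 X-linked genes 24 (3.76%) had one, against 2.78% of autosomal genes, among them the histone gene H2al3 at 5.34, 5.50, 5.82, 5.55 and 7.87.

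**Figure D4:**
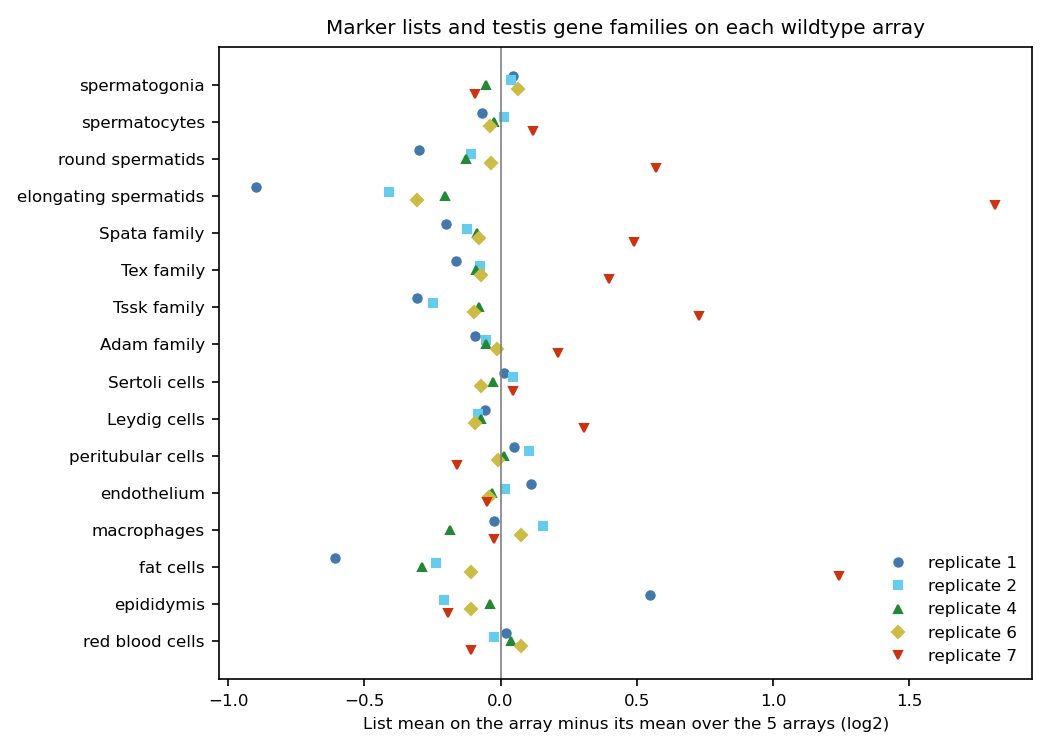
Mean level of 12 marker lists and 4 testis gene families on each wildtype array, minus the list's mean over the 5 arrays (x axis, log2), 1 symbol per array. Replicate 7 (red) stands to the right for elongating and round spermatids, the Spata, Tex, Tssk and Adam families, Leydig cells and fat cells, and replicate 1 (blue circles) for the epididymis list.

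Several fat cell genes also stood high on replicate 7. Fabp4, the fatty acid binding protein of fat cells, was at 6.03, 6.86, 6.53, 6.96 and 9.61, a range of 3.58. Car3, a carbonic anhydrase abundant in fat and muscle, was at 6.83, 7.73, 7.39, 7.80 and 10.02. Cfd, the secreted protease adipsin, was at 5.94, 6.29, 6.41, 6.79 and 8.94. Replicate 7 was at least 2.16 above the other arrays in all 3 genes, and replicate 1 was lowest.

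Of the 5 measured fat cell markers, 3 had a range of at least 1, against 2.68% of all genes. These were Car3, Cfd and Adipoq, the adiponectin gene, at 5.99, 6.53, 6.61, 6.62 and 8.39. Cidec, a lipid droplet protein, was at 3.74, 3.90, 3.68, 3.82 and 4.40, and Lep, the leptin gene, was at 4.05, 3.95, 4.03, 4.01 and 4.03. The last 2 lay in the lowest 10% of genes. The mean of the 5 was 5.31 to 5.81 on replicates 1, 2, 4 and 6 and 7.16 on replicate 7. Among Fabp4's 3 other probe sets 1 showed the same, with a range of 3.54, and the others had ranges of 0.26 and 0.35. Car3's 3 other probe sets were also highest on replicate 7, with smaller ranges of 1.53, 0.72 and 0.58. The part of fat in the sample in any result on replicate 7 was not tested.

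Other somatic lists moved less. The mean of the Leydig list was 9.26 on replicate 7 and 8.86 to 8.90 on the others. The 5 peritubular markers were all lowest on replicate 7, where 28.9% of all genes were lowest, with a list mean of 8.92 against 9.07 to 9.18. The Sertoli list ranged by 0.12 and the macrophage list by 0.34. None of their members had a range of at least 1, which for so few genes is near the share of 2.68% over all genes.

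The remaining genes among the 25 with the largest ranges that were high on replicate 7 were mostly genes of late germ cells or genes known mainly by name. Cabs1, a calcium-binding protein of spermatids, was at 4.91, 5.79, 5.85, 6.0 and 8.52. Fam71b was at 4.16, 4.49, 4.62, 4.39 and 7.79, and Lemd1, a testis-expressed gene, was at 4.77, 5.71, 5.88, 5.81 and 8.35. Apoc2, an apolipoprotein that activates lipoprotein lipase, was at 4.89, 4.91, 5.37, 5.17 and 8.16. Cst13, a cystatin of the testis, was at 4.96, 5.06, 4.95, 5.21 and 7.97, and Asb17 was at 6.56, 7.10, 7.24, 7.32 and 9.49. In each of these, the 4 other arrays lay within 1.11 of each other. Another 5 carried only clone names or a pseudogene name.

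**Figure D5:**
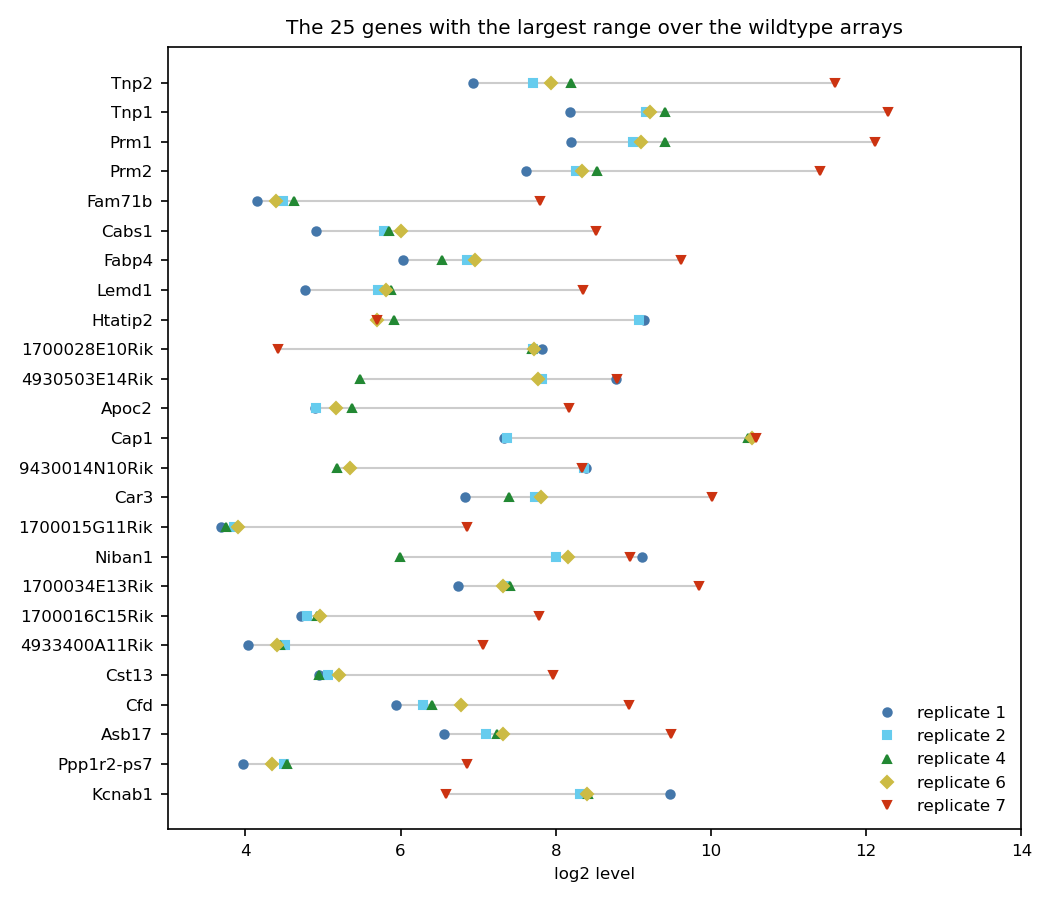
Log2 level (x axis) on each of the 5 wildtype arrays, 1 symbol per array, for the 25 genes with the largest range (rows, in order of range). Replicate 7 (red) is alone on the right in most rows and alone on the left for 1700028E10Rik and Kcnab1. In Htatip2 and Cap1 replicates 1 and 2 lie apart from the other 3 arrays.

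Only 47 genes were lower on replicate 7 by this rule. Kcnab1, a subunit of potassium channels, was at 9.47, 8.31, 8.42, 8.41 and 6.58, and its other probe set repeated the order of the highest and lowest array with a range of 2.87. The clone-named gene 1700028E10Rik was at 7.82, 7.71, 7.70, 7.72 and 4.41, but its other probe set had a range of 0.56 and did not repeat it. A probe set shared by the globin genes Hba-a1 and Hba-a2, named here after its values were seen, was at 13.58, 13.00, 12.35, 12.96 and 11.59. Globin transcripts mark red blood cells, but another probe set, named for Hba-a1 alone, was at 4.47, 4.57, 4.73, 4.79 and 4.74 and did not repeat this. The red cell markers Alas2 and Slc4a1 had ranges of 0.35 and 0.20 and were lowest on replicate 7. The part of blood in these values was not tested.

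A smaller set of genes split the arrays into 2 and 3. For 53 of the 589 genes the largest gap lay between 2 arrays and 3, and for 15 that gap was at least 1. Cap1, an actin regulator, was at 7.33, 7.38, 10.48, 10.53 and 10.58, and its other probe set was at 5.86, 6.51, 9.32, 9.32 and 9.34. Both probe sets thus put replicates 1 and 2 below replicates 4, 6 and 7.

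Htatip2, a short-chain reductase, had the opposite split at 9.13, 9.07, 5.91, 5.69 and 5.70, but its other probe set ranged by 0.40 and did not show it. Sdc4, the cell surface proteoglycan syndecan 4, was at 8.27, 8.26, 10.46, 10.51 and 9.46, and its other probe set also did not repeat the order. Klf1, the erythroid transcription factor, was at 6.27, 6.26, 7.78, 7.91 and 8.62, and is named here after its values were seen. The clone 9430014N10Rik was at 8.38, 8.37, 5.18, 5.35 and 8.34, a different division of the arrays.

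Other genes also varied without replicate 7. Niban1, a stress-induced gene, was at 9.11, 8.0, 5.99, 8.15 and 8.95, with replicate 4 lowest. Atp8b4, a phospholipid transporter, was at 7.21, 5.98, 8.59, 6.65 and 6.93. Fntb, a farnesyltransferase subunit, was at 7.33, 8.51, 9.44, 8.65 and 7.26, and Atm, a kinase of the DNA damage response, was at 7.25, 8.76, 6.71, 6.97 and 8.60. In Fntb replicates 1 and 7 lay below the other 3, and in Atm replicates 2 and 7 lay above. The other probe sets of Niban1, Atp8b4 and Atm had ranges of 0.17 to 0.52.

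Crisp1, a secreted protein of the epididymis, was at 5.82 on replicate 1 and at 3.29, 3.17, 3.17 and 3.28 on replicates 2, 4, 6 and 7. Of the other epididymis markers, Lcn5 was at 4.96, 4.99, 5.05, 5.05 and 4.98, Lcn8 was at 5.48, 5.18, 5.68, 5.32 and 5.08, and Spint4 was at 4.09, 3.86, 4.10, 4.17 and 4.05. None of these 3 was highest on replicate 1. Defb20 was not matched to a gene name here, and the part of epididymal tissue in the Crisp1 value was not tested.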

How the data were processed

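RNA of 5 samples labelled wildtype, all of day 23 testis, was measured on 1-colour arrays, with the group and the number of each read from its title. Per the methods and the labels, the authors corrected background and normalised with RMA and deposited log2 levels per probe set in a table of all arrays. Its group means, differences and p-values, and 2 tables of the authors' comparisons, were not used. Sorted values of the 5 arrays differed by at most 0.106. The annotation's genome build is not given in the sources used here, so current names, chromosomes and promoters came from RefSeq (GRCm38.p6) by Entrez ID (17721 genes) or symbol (207). Another 1285 of the names joined several genes.

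The members and gene lists were chosen with earlier results of these data known. Genes to name were the 25 highest, 10 lowest, 25 with the largest range and 10 with the largest range without replicate 7, passing over probe sets that join several genes, and of each list the highest, lowest and most variable member. The text gives values for part of them. The counting was tested on simulated data, with the same normal noise in every gene and known shifts larger than the threshold. That checks the working of the rule and not the counts reported, since real genes differ in spread. Python 3.11.15, pandas 2.3.3 and numpy 2.4.6 were used. Alternatives left out each array, rescaled the values, added an offset of 64 on the linear scale, or changed the filter, probe sets or threshold. Having 5 arrays limits how precise each mean and SD can be.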

Additional observations from a re-analysis of the deposited data

Results flagged for a closer look

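Values of a single array that stood apart from the other 4 by Dixon's ratio at its 95% level were sought among the means of 41 gene lists and among 65 named genes. Over all 22008 genes this held for 7.65%, where chance would give about 1 in 20 for groups of normal values. Replicate 7 was the outlying array in 4.52%. The 1 in 20 is for any of the 5 arrays and not for 1 given array, so it is no measure for the 4.52%.

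Of the 41 list means, 10 stood apart, 9 of them on replicate 7. There the mean was 11.59 for elongating spermatids (nearest other array 9.57), 9.26 for Leydig cells, 7.16 for fat cells and 8.59 for tubulins. Of the 14 tubulin genes, however, 9 were lowest on replicate 7 and 3 highest, among them Tuba8 at 8.32 against 6.10 to 6.54. The mean there was 9.78 for the Spata family, 9.30 for the Tex family, 8.22 for the Adam family, 9.08 for the Tssk family and 10.47 for tektin and outer dense fibre genes. The epididymis list stood apart on replicate 1, at 5.09, where the others were at 4.33 to 4.5.

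Of the 65 genes, 17 stood apart. The 65 include the 25 genes with the largest range and the 10 with the largest range without replicate 7, chosen on these same arrays. All of the 17 except Phf7 and Rpl26 came from those lists. The 17 of 65 therefore cannot be compared with the share over all genes, because the choice by range favours arrays that stand apart. On replicate 7 the high values were Phf7 14.15, Tnp2 11.59, Prm2 11.40, Fam71b 7.79, Fabp4 9.61, Apoc2 8.16, Cst13 7.97, Cfd 8.94, Asb17 9.49 and Ppp1r2-ps7 6.85. The clone-named genes were 1700015G11Rik 6.86, 1700034E13Rik 9.84, 1700016C15Rik 7.78 and 4933400A11Rik 7.06, and 1700028E10Rik was low there at 4.41. Rpl26 was low on replicate 4 at 13.81, only 0.10 below the nearest array, and Crisp1 was high on replicate 1 at 5.82.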

How the results depend on the processing

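No paired analysis was possible because a single group was described and no replicate number of it recurs in another. The count of 589 genes with a range of at least 1 was 77 (without replicate 7) to 577 when arrays were left out singly, 315 with an offset of 64 on the linear scale, 341 over genes above the median level, 931 over every probe set, 3011 at a range of 0.5, 108 at a range of 2 and 358 at an SD of 0.5. The count of 520 set by replicate 7 was 418 to 512 without another array, 289 with the offset and 306 above the median level. The median SD of 0.114 was 0.101 to 0.114 without 1 array, 0.0670 with the offset and 0.0966 above the median level. Leaving out arrays gave ranges of the list mean of 0.69 to 2.71 for elongating spermatids, 0.26 to 0.87 for round spermatids and 0.50 to 1.85 for fat cells, the lowest always without replicate 7, and the fat cell range was 3.19 above the median level, where 1 member remained. The 29 genes annotated to spermatogenesis became 3 to 29, and the 18 X-linked genes in the highest 10% became 17 to 18, or 7 when that 10% was taken over genes above the median level. These last 2 checks, and those of single genes, were chosen after seeing the data. All 25 highest genes stayed so when any array was left out, and 21 did so with probe sets chosen without an s or x suffix. Of 412 further values of list means, 366 moved by less than 1 SD between arrays, as did 251 of 285 for single genes. Signal near background and probe saturation could both limit these values and were not tested, and without detection calls a low level cannot be read as absence.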
